A study of Mus musculus with 12 samples.

Results

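Complex I subunit genes encode the nuclear part of NADH:ubiquinone oxidoreductase, the entry point of the mitochondrial respiratory chain. They were taken from the gene table by name: symbols that begin with Ndufa, Ndufab, Ndufb, Ndufc, Ndufs or Ndufv and go on with a number. Of the 55536 genes, 43 matched. Of these, 5 pseudogenes were left out, 1 gene is not reported here, and 37 protein-coding genes remained. The name pattern also takes in Ndufa4 and its relative Ndufa4l2. Ndufa4 carries a complex I name but is now counted as a subunit of complex IV, and Ndufa4l2 was grouped with it here. The 37 genes were read in liver RNA of wild-type C57BL/6J mice (strain C57BL/6 in the sample labels) that were 8 weeks old. Each group of 4 samples had received 0.1 OD of adenovirus through the tail vein: the controls a hairpin against lacZ (shLacZ), the others a hairpin against G0s2 (shG0s2) or Rgs16 (shRgs16). All groups, controls included, therefore carried virus and a short hairpin RNA. Livers were collected 12 days after injection at zeitgeber time 12, following 6 h without food. Whether each sample is a mouse of its own is not given, so every p-value here speaks of the variation among the sequenced samples, which may be technical.

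Complex I takes electrons from NADH, passes them along iron-sulfur clusters to ubiquinone, and uses the energy to pump protons across the inner mitochondrial membrane. It has an arm in the matrix, made of the N module that binds NADH and the Q module that binds ubiquinone, and an arm in the membrane. Core subunits do the chemistry, accessory subunits surround and stabilise them, and the core of the membrane arm is encoded by mitochondrial DNA. Hepatocytes are rich in mitochondria and use the chain to reoxidise NADH from fatty acid oxidation and other pathways. The comparisons ask how the transcripts of this one enzyme behave when G0s2 or Rgs16 is knocked down.

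Total estimated counts ranged from 18458222 to 27170419 per sample. The level of a gene in a sample is its CPM, the read count normalised to the TMM-scaled size of the library. G0s2 lay between 66.6 and 87.4 CPM in the controls and between 24.6 and 49.3 in its knockdown, and Rgs16 between 105 and 212 CPM and between 14.4 and 37.4, with no overlap. Rgs16 was also lower in shG0s2, at 43.9 to 71.3 CPM, all below the controls (log2 fold change -1.32, edgeR adjusted p 0.00236). G0s2 in shRgs16 lay at 57.8 to 88.3 CPM and overlapped the controls. The samples also differed in composition. The 22 major urinary protein (Mup) genes, which encode short and very abundant secreted proteins of mouse liver, took 10.5% ± 0.642 of control counts, but 1.15% ± 0.31 with shG0s2 and 2.27% ± 0.893 with shRgs16 (mean ± SD over 4 samples each). In TPM, transcript abundance per length scaled to a fixed total, they took 19.5% ± 1.21, 2.38% ± 0.664 and 4.64% ± 1.78. The sign of the change differed between scalings for many complex I genes. Of the 12 hepatocyte markers, 11 were lower in shG0s2 and 9 in shRgs16 (2 higher), with sums of 59200 to 71300 CPM in controls, 33600 to 56000 with shG0s2 and 61500 to 67900 with shRgs16. All 10 stellate cell and fibroblast markers were higher in shG0s2 and 7 of 10 in shRgs16, with sums of 258 to 368, 1220 to 1520 and 476 to 887 CPM. Of the Kupffer cell and macrophage markers, 9 of 10 tested were higher in shG0s2 and 8 of 9 in shRgs16, with sums of 718 to 800, 1040 to 1250 and 959 to 1140 CPM. Of the T and NK cell markers, 7 and 8 of 9 were higher, with sums of 9.35 to 26.3, 37.9 to 43.0 and 36.9 to 50.0 CPM. Among markers of sinusoidal endothelium (8 tested), 3 were lower in shG0s2 and 2 higher in shRgs16, and of 5 cholangiocyte, 4 neutrophil, 4 B cell and 5 erythroid markers 2, 1, 0 and 4 were higher in shG0s2 and 2, 1, 1 and 0 in shRgs16. No marker was at 0 in every sample, and these marker counts are on the TMM scale described next. In bulk liver, fewer cells of a type and less RNA per cell cannot be told apart, and the part of cell makeup in the changes of complex I genes was not tested.

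Relative to the bulk of genes, the complex I subunit genes were lower in both knockdowns, and more so in shG0s2. With TMM scaling, which sets the typical gene to no change, 34 of the 37 fell in shG0s2 and 0 rose at a false discovery rate of 0.05 in edgeR, against 29.2% of all 15592 tested genes that fell and 31.3% that rose. Their median log2 fold change was -0.57, with a range of -1.04 to -0.07, beside a median of 0.01 over all tested genes. Scaling by library size alone gave another picture of the same samples. There, 10 genes were lower and 4 higher, the background was 8.01% lower and 64.5% higher, and the members' median was -0.09 against 0.50 for all genes. In the deposited TPM, tested with limma on log2(TPM + 0.1), 3 were lower and 14 higher, the background was 4.62% and 74.5%, and the median was 0.13 against 0.69. The direction of the set thus depended on the scaling. Its distance from the median gene was -0.58, -0.58 and -0.56 in the order TMM, library size and TPM. Scaling moves most genes of a sample by nearly the same amount. This distance of the set could therefore hardly change, and its steadiness is no separate support. Single genes could move otherwise in TPM. In shG0s2 the distance of Ndufv3 went from -0.69 with TMM to -0.89 in TPM, and that of Ndufc1 from -0.31 to -0.11.

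In shRgs16 the same 37 genes were also low relative to the typical gene, by less. With TMM, 32 fell and 0 rose, against 24.5% and 24.6% of 15324 tested genes, with a median log2 fold change of -0.33 (range -0.70 to -0.01). Library size alone gave 8 lower and 4 higher genes (background 8.35% and 50.1%) and a median of -0.03. TPM gave 3 lower and 14 higher (background 4.94% and 58.0%) and a median of 0.08. The distance from the median of all genes was -0.34 under each of the 3 scalings, a sameness again all but fixed in advance. With TMM, 30 genes fell in both knockdowns. Ndufa2, Ndufa3, Ndufa7 and Ndufc2 passed the threshold in shG0s2 but not in shRgs16, Ndufa8 and Ndufab1 in shRgs16 but not in shG0s2, and Ndufa4l2 in neither. Of these, Ndufa7, Ndufc2 and Ndufa8 also differed between the knockdowns in the direct test given further on, and Ndufa2, Ndufa3 and Ndufab1 did not pass it. Both comparisons use the same 4 shLacZ samples.

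**Figure D1:**
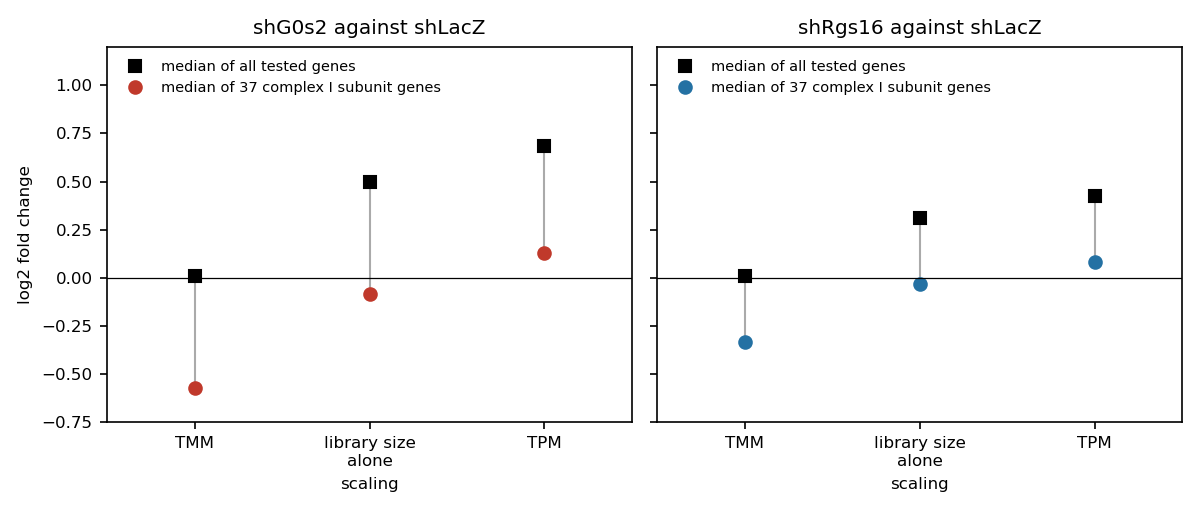
Median log2 fold change of the 37 complex I subunit genes (circles) and of all tested genes (squares) in each knockdown, with libraries scaled by TMM, by library size alone, or read as TPM. The circles cross 0 from -0.57 to 0.13 in shG0s2 and from -0.33 to 0.08 in shRgs16. The grey line that joins circle and square keeps nearly the same length, which could hardly differ, since scaling moves most genes nearly alike.

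With TMM the shift was shared by all samples of a group. Without Ndufa4 and Ndufa4l2, the median over 35 genes of the log2 difference from the shLacZ mean was -0.60, -0.59, -0.56 and -0.60 in the shG0s2 samples and -0.34, -0.46, -0.35 and -0.30 in the shRgs16 samples with TMM. Among the shLacZ samples it lay between -0.01 and 0.03. In TMM-scaled CPM, 33 of the 37 genes had every shG0s2 sample below every shLacZ sample, where 27.4% of tested genes did. For shRgs16 the count was also 33, where 22.7% did. In TPM the sample medians were above 0 in all 8 knockdown samples, with means of 0.13 in shG0s2 and 0.09 in shRgs16. The shLacZ samples lay between -0.06 and 0.09 in TPM, so both knockdowns overlapped them. There 3 genes had every shG0s2 sample below every control and 12 had every one above. For shRgs16 the counts were 3 and 11. The matching shares of all tested genes were not worked out. For scale, 74.5% and 58.0% of all tested genes passed as higher in TPM in shG0s2 and shRgs16. As a plain share of all counts the 35 genes took 0.221% ± 0.00889 of control libraries, 0.205% ± 0.00626 with shG0s2 and 0.209% ± 0.00347 with shRgs16 (mean ± SD, n = 4 per group).

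The genes did not all move by the same amount, and 4 promoters are printed because their genes lie at the ends of that range. Ndufb3 and Ndufv3 were among the 3 genes that stayed lower in both knockdowns under all 3 scalings, the other being Ndufb9, which has no sequence in the table used. Ndufa8 and Ndufab1 had the TMM fold changes nearest to 0 in shG0s2. Each stretch is the 120 bases just before the RefSeq transcription start on GRCm38.p6, written 5′ to 3′ on the gene's strand. Bases are in lower case, with matches to the motifs named after them in capitals. By the GENCODE positions used for genes here, Ndufb3, Ndufa8 and Ndufab1 start farther upstream, so the last part of their stretches lies inside the gene.
Ndufb3 (chr1:58586277-58586396, plus strand): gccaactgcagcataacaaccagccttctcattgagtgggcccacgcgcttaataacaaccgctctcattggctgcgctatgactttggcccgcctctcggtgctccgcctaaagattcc
Ndufv3 (chr17:31519995-31520114, plus strand): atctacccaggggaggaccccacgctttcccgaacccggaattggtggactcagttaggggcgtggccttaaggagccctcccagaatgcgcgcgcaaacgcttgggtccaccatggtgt
Ndufa8 (chr2:36049339-36049458, minus strand): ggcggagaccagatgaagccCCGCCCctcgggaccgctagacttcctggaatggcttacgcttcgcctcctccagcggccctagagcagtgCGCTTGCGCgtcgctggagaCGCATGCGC
Ndufab1 (chr7:122101849-122101968, minus strand): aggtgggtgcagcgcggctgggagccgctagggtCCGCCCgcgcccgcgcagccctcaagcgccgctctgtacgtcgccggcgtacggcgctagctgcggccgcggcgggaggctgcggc
The stretch of Ndufa8 holds 2 matches to the NRF1 motif and 1 to the SP1 motif, and that of Ndufab1 holds 1 SP1 match. Both NRF1 matches of Ndufa8 lie in the part inside the gene by GENCODE. Within their 120 bases, Ndufb3 and Ndufv3 hold none of the motifs searched. Outside the printed stretches, Ndufv3 has SP1 matches at bases -139 and 23 from the start, and Ndufa8 a further one at -121.

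Motifs were searched on both strands in windows of 300 bases, 250 before the start and 50 after it, for the 32 members with a RefSeq window, as exact letters that may overlap one another. GCGCANGCG, a motif of NRF1, an activator of nuclear respiratory genes, occurred in 8 of 32 member windows (25.0%) and in 6.47% of all 27025 windows. AAGATGGCG, a motif of YY1, occurred in 5 (15.6%) against 1.49%. CCGGAAG, the core shared by ETS factors such as GABP, occurred in 4 (12.5%) against 9.12%, and AAGGTCA, a core motif of ERR nuclear receptors, in 3 (9.38%) against 4.66%. GGGCGG, an SP1 motif, was in 43.8% against 35.9%, and TATAAA, the TATA box, in 12.5% against 14.2%. Median GC content was 59.2% in the members' windows and 52.7% in all. Members with and without the NRF1 motif had median log2 fold changes of -0.57 and -0.59 in shG0s2 and of -0.38 and -0.33 in shRgs16 with TMM, and for YY1 the values were -0.55 and -0.59, and -0.41 and -0.33. For the TATA box, in 4 members, the medians with and without it were -0.54 and -0.59 in shG0s2 and -0.18 and -0.36 in shRgs16. That gap in shRgs16 was the widest of the motifs searched and rests on 4 members. For the ETS motif the values were -0.59 and -0.58, and -0.36 and -0.34. Those for ERR were -0.63 and -0.58, and -0.36 and -0.33, and those for SP1 -0.59 and -0.58, and -0.34 and -0.36. These matches describe letters in a window and do not show binding.

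The N module oxidises NADH. All 10 of its genes fell in shG0s2 with TMM (median -0.54) and 8 of 10 in shRgs16 (median -0.29). In TPM, 5 of the 10 were higher and 1 lower in each knockdown. For every part of the complex, the TPM counts stand beside 74.5% of all tested genes higher and 4.62% lower in shG0s2. In shRgs16 those shares were 58.0% and 4.94%. With TMM, 29.2% and 24.5% of all tested genes fell in shG0s2 and shRgs16. Ndufv1 (ENSMUSG00000037916, chromosome 19, 4007384 to 4012806, minus strand), whose protein holds the flavin that receives the electrons, had 215, 232, 233 and 235 CPM in the shLacZ samples, 147, 134, 144 and 138 in shG0s2 and 181, 178, 194 and 188 in shRgs16. No sample of either knockdown reached the lowest control. Its log2 fold change was -0.69 (SE 0.0593, edgeR adjusted p 1.28e-06) in shG0s2 and -0.31 (SE 0.0555, edgeR adjusted p 0.000749) in shRgs16. Ndufv2, the iron-sulfur partner of Ndufv1, had 73.4, 78.5, 79.7 and 77.7 CPM in the shLacZ samples, 54.0, 56.4, 52.6 and 53.4 in shG0s2 and 69.6, 68.4, 63.9 and 69.6 in shRgs16. The groups stood apart in the same order, with fold changes of -0.51 (SE 0.0527) and -0.19 (SE 0.0534). Ndufs1 (ENSMUSG00000025968, chromosome 1, 63143596 to 63176833, minus strand), the largest iron-sulfur subunit, had 128, 141, 129 and 156 CPM in the shLacZ samples, 102, 91.9, 108 and 104 in shG0s2 and 108, 119, 119.6 and 112 in shRgs16. Both knockdowns lay below all controls, with changes of -0.44 (SE 0.0771) and -0.28 (SE 0.071). In TPM the sign of these 3 core genes turned in both knockdowns. The values were 0.04, 0.28 and 0.23 in shG0s2 and 0.16, 0.27 and 0.14 in shRgs16. Of these, Ndufv1 in shG0s2 and Ndufs1 in shRgs16 did not pass the threshold (limma adjusted p 0.622 and 0.104).

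Among the accessory genes of the N module, Ndufv3 (ENSMUSG00000024038, chromosome 17, 31520115 to 31531331, plus strand) fell under all 3 scalings. It had 48.8, 48.8, 45.9 and 47.0 CPM in the shLacZ samples, 28.4, 27.9, 29.3 and 32.1 in shG0s2 and 28.5, 27.6, 31.7 and 30.0 in shRgs16, so that the knockdowns overlapped each other, well below control. Its change was -0.68 (SE 0.0636, edgeR adjusted p 2.44e-06) in shG0s2 and -0.70 (SE 0.0615, edgeR adjusted p 4.72e-06) in shRgs16, the largest fall of any member there with TMM. In TPM it was still -0.20 and -0.48, with limma adjusted p of 0.0151 and 8.54e-05. Ndufs4, an accessory subunit whose loss in mice and people causes a Leigh-like encephalopathy, had 55.1, 53.2, 55.8 and 56.4 CPM in the shLacZ samples, 37.5, 37.5, 36.3 and 38.3 in shG0s2 and 49.4, 49.4, 50.4 and 51.5 in shRgs16. The shRgs16 samples lay close below the controls and the shG0s2 samples far below them, with changes of -0.55 (SE 0.0529) and -0.14 (SE 0.0506). Ndufa7 (ENSMUSG00000041881, chromosome 17, 33824572 to 33838317, plus strand) had 54.5, 58.0, 58.6 and 55.8 CPM in the shLacZ samples, 39.0, 35.9, 40.1 and 41.2 in shG0s2 and 59.5, 52.9, 56.6 and 56.0 in shRgs16. Here shRgs16 overlapped the controls, with a log2 fold change of -0.01 (SE 0.0558, edgeR adjusted p 0.851), while every shG0s2 sample was lower, with -0.53 (SE 0.0607, edgeR adjusted p 1.31e-05). In TPM it was higher in both, by 0.18 and 0.42. Ndufa2 had 31.1, 31.2, 30.3 and 29.5 CPM in the shLacZ samples, 23.9, 26.2, 26.6 and 26.9 in shG0s2 and 28.4, 27.7, 29.2 and 27.5 in shRgs16. All knockdown samples lay below the controls, by little. It fell by 0.23 in shG0s2 with TMM (SE 0.0634, edgeR adjusted p 0.00802), but was 0.26 with library size alone and 0.48 in TPM, both past the threshold on the higher side. In shRgs16 its TMM change of -0.12 did not pass (edgeR adjusted p 0.103). The remaining 3 genes, Ndufa6, Ndufa12 and Ndufs6, fell in both knockdowns with TMM, by 0.41 to 0.70 on the log2 scale.

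The Q module hands electrons to ubiquinone. All 6 of its genes fell in both knockdowns with TMM, with medians of -0.59 in shG0s2 and -0.43 in shRgs16. In TPM, 1 of the 6 was higher and 0 lower in each. Ndufs7, the carrier of the last iron-sulfur cluster, had 82.1, 79.5, 83.0 and 70.0 CPM in the shLacZ samples, 47.4, 39.9, 45.6 and 43.7 in shG0s2 and 58.6, 52.6, 63.2 and 55.9 in shRgs16. The order was control, shRgs16 and shG0s2, without overlap, and shG0s2 fell by 0.82 (SE 0.0723), the largest change of the core genes named here. Ndufs3, a core subunit next to the quinone site, had 109.7, 117, 116 and 114 CPM in the shLacZ samples, 70.2, 69.7, 72.8 and 66.8 in shG0s2 and 86.1, 83.3, 89.5 and 84.5 in shRgs16. Its groups did not overlap either, and the changes were -0.70 (SE 0.0523) and -0.41 (SE 0.0492). Ndufs8, another iron-sulfur subunit, had 61.3, 61.9, 63.1 and 59.2 CPM in the shLacZ samples, 39.1, 40.8, 41.9 and 39.7 in shG0s2 and 48.9, 44.0, 46.7 and 47.1 in shRgs16. It too kept the 3 groups apart, with -0.60 (SE 0.0533) and -0.40 (SE 0.0541). The accessory genes Ndufa5 and Ndufa9 fell by 0.56 and 0.58 in shG0s2 and by 0.28 and 0.46 in shRgs16 with TMM. All 7 core genes of both modules thus fell in both knockdowns with TMM, while in TPM 0 were lower and 3 were higher in shG0s2 and 2 in shRgs16.

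The nuclear genes of the membrane arm encode accessory subunits. In its distal part, away from the matrix arm, 10 of 10 genes fell in each knockdown with TMM, with medians of -0.66 and -0.38, and in TPM 2 were lower and 1 higher in each. Ndufb3 (ENSMUSG00000026032, chromosome 1, 58586384 to 58595964, plus strand), with the first promoter printed above, had 74.6, 86.3, 75.8 and 73.2 CPM in the shLacZ samples, 37.8, 35.9, 39.5 and 36.0 in shG0s2 and 48.4, 47.6, 50.4 and 48.2 in shRgs16. No shG0s2 sample exceeded 39.5 CPM and no shRgs16 sample 50.4, while the lowest control was at 73.2. Its fall of 1.04 in shG0s2 (SE 0.0669, edgeR adjusted p 1.54e-07) was the largest of any member, and it fell by 0.67 in shRgs16 (SE 0.0616, edgeR adjusted p 6.2e-06). In TPM it was still lower, by -0.34 and -0.24, with limma adjusted p of 0.00101 and 0.0096. Ndufb9 (ENSMUSG00000022354, chromosome 15, 58933756 to 58939488, plus strand), a member of the LYR family that binds the acyl carrier protein, had 157, 154, 153 and 154 CPM in the shLacZ samples, 85.6, 83.5, 87.5 and 82.8 in shG0s2 and 98.9, 89.7, 98.3 and 96.9 in shRgs16. Its controls lay close together and both knockdowns were far below them, with changes of -0.86 (SE 0.05, edgeR adjusted p 7.69e-08) and -0.69 (SE 0.051, edgeR adjusted p 1.71e-06). TPM gave -0.15 and -0.26 (limma adjusted p 0.0273 and 0.00113). A share of 19.5% of its exon bases is also annotated to Gm49356 on the same strand. Ndufb10 (ENSMUSG00000040048, chromosome 17, 24722060 to 24724478, minus strand) had 104, 102, 95.5 and 95.9 CPM in the shLacZ samples, 56.9, 52.0, 57.7 and 52.8 in shG0s2 and 72.8, 70.2, 78.3 and 77.9 in shRgs16. The 3 groups stood apart, with changes of -0.85 (SE 0.059) and -0.41 (SE 0.0565). The other 7 genes, Ndufb2, Ndufb4, Ndufb5, Ndufb6, Ndufb7, Ndufb8 and Ndufb11, fell by 0.55 to 0.72 in shG0s2 and by 0.24 to 0.53 in shRgs16 with TMM. Ndufb4 is uncertain, since the processed pseudogene Ndufb4c was assigned up to 200% of its counts.

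In the proximal part, near the matrix arm, 7 of 8 genes fell in shG0s2 (median -0.47) and 6 of 8 in shRgs16 (median -0.25) with TMM, and in TPM 5 were higher and 0 lower in each. Ndufa13, which is also known as GRIM-19, had 112, 112, 115 and 106 CPM in the shLacZ samples, 63.1, 69.5, 62.5 and 61.7 in shG0s2 and 95.4, 81.0, 92.1 and 98.2 in shRgs16. The shG0s2 samples were far below the others and shRgs16 was closer to control, with changes of -0.79 (SE 0.0568) and -0.28 (SE 0.0643). Of its exon bases, 30.0% overlap Tssk6 on the opposite strand, and whether counting used strand is not given in the sources used here. Ndufa8 (ENSMUSG00000026895, chromosome 2, 36036326 to 36049406, minus strand), an accessory subunit on the side of the intermembrane space, had 86.8, 86.8, 84.7 and 88.9 CPM in the shLacZ samples, 81.7, 83.1, 74.2 and 90.4 in shG0s2 and 74.9, 68.1, 68.3 and 73.4 in shRgs16. The shG0s2 samples spanned the control range, while every shRgs16 sample was lower. Its change was -0.07 (SE 0.0632, edgeR adjusted p 0.38) in shG0s2, which did not pass, and -0.29 (SE 0.0531, edgeR adjusted p 0.000824) in shRgs16, which did. With library size alone it was higher in shG0s2, by 0.42 (edgeR adjusted p 0.000245), and in TPM by 0.63 (limma adjusted p 3.3e-05). In shRgs16 the TPM value turned to 0.14 (limma adjusted p 0.0405). Ndufc2 had 27.9, 30.0, 28.6 and 28.7 CPM in the shLacZ samples, 20.2, 20.9, 20.5 and 21.9 in shG0s2 and 25.0, 24.6, 29.0 and 27.6 in shRgs16. Only shG0s2 lay wholly below the controls, with -0.45 (SE 0.0622) there and -0.12 (SE 0.0689) in shRgs16, which did not pass. Ndufa3 likewise passed in shG0s2 but not in shRgs16 with TMM (-0.24, edgeR adjusted p 0.0192, against -0.12 and 0.247 in shRgs16). In TPM the sign of Ndufc2 and Ndufa3 turned, and every knockdown sample lay above every control. Ndufc2 was higher there by 0.31 in shG0s2 and 0.35 in shRgs16, and Ndufa3 by 0.47 and 0.30, all past the threshold. Ndufa1, Ndufa11, Ndufc1 and Ndufs5 fell in both knockdowns with TMM, by 0.30 to 0.65 in shG0s2 and 0.21 to 0.55 in shRgs16. In TPM, Ndufa11 and Ndufc1 were higher in both.

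Ndufab1 (ENSMUSG00000030869, chromosome 7, 122085403 to 122101886, minus strand) encodes the mitochondrial acyl carrier protein, a subunit of both arms that also serves fatty acid and lipoate synthesis in the matrix. It had 68.8, 77.6, 70.5 and 75.6 CPM in the shLacZ samples, 70.3, 71.2, 67.1 and 66.6 in shG0s2 and 64.5, 64.5, 60.2 and 63.2 in shRgs16. The shG0s2 samples overlapped the controls and the shRgs16 samples lay below them. The change was -0.08 (SE 0.0577, edgeR adjusted p 0.258) in shG0s2 and -0.21 (SE 0.0575, edgeR adjusted p 0.0085) in shRgs16. TPM gave 0.61 in shG0s2 (limma adjusted p 7.39e-05) and 0.27 in shRgs16 (limma adjusted p 0.00916). Ndufa4 (ENSMUSG00000029632, chromosome 6, 11900292 to 11907497, minus strand), the complex IV subunit with a complex I name, had 204, 214, 209.5 and 216 CPM in the shLacZ samples, 141, 147, 144 and 146 in shG0s2 and 186, 179.8, 188 and 195 in shRgs16. The 3 groups did not overlap, and the changes were -0.54 (SE 0.0529) and -0.17 (SE 0.0522) with TMM, against 0.17 and 0.25 in TPM, past the threshold in both. Ndufa4l2, a hypoxia-induced relative, had the lowest level of the 37 genes, with 1.91, 2.22, 1.55 and 1.55 CPM in the shLacZ samples, 1.77, 1.52, 1.28 and 1.53 in shG0s2 and 1.57, 1.96, 1.72 and 1.11 in shRgs16. All groups overlapped, and neither change passed the threshold, at -0.23 (SE 0.206, edgeR adjusted p 0.354) and -0.18 (SE 0.229, edgeR adjusted p 0.542).

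**Figure D2:**
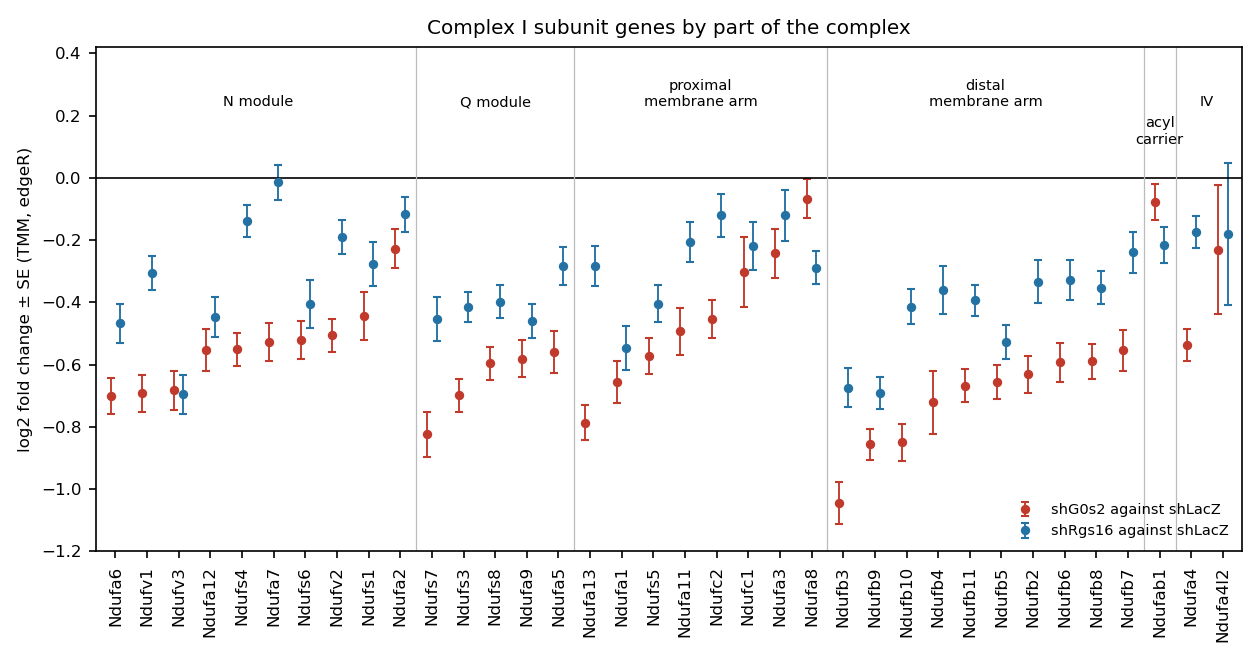
Log2 fold change ± SE of 36 complex I subunit genes against shLacZ with TMM scaling, ordered by part of the complex and by the shG0s2 value within it (IV, Ndufa4 and Ndufa4l2; n = 4 samples per group). Ndufb3 is lowest at -1.04 in shG0s2, and Ndufa8 and Ndufab1 lie near 0 there; library size alone and TPM shift all points upward, so that many cross 0.

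**Figure D3:**
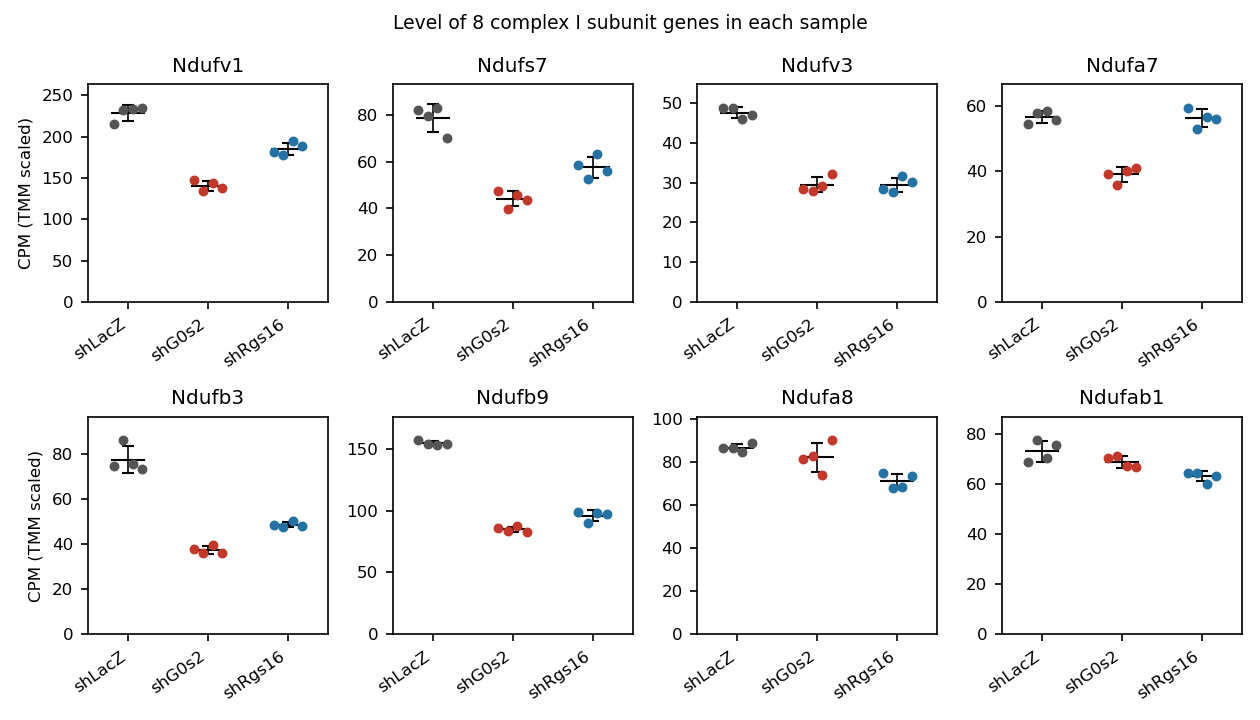
TMM-scaled CPM of 8 genes in every sample (points), with the group mean and SD (black). Both knockdowns overlap each other below control for Ndufv3, the groups stand apart for Ndufs7, and Ndufa7 and Ndufa8 overlap the controls in 1 knockdown each; in TPM, Ndufa7 and Ndufa8 are not below control, and Ndufs7 does not pass the threshold.

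Set against each other directly in a model of all 12 samples, shG0s2 had the lower levels. With TMM, 24 of 37 genes were lower and 1 higher in shG0s2 than in shRgs16, against 20.5% and 21.0% of 16018 tested genes, with a median of -0.25 beside 0.01 for all genes. Library size alone gave 7 lower and 4 higher (background 9.81% and 37.8%), and TPM gave 3 lower and 9 higher (background 7.11% and 40.3%). The distance from the median gene was -0.26 under all 3, and could hardly differ, since scaling moves most genes nearly alike. By part of the complex, 10 of 10 distal genes, 5 of 10 N module genes, 4 of 6 Q module genes and 4 of 8 proximal genes were lower with TMM. The smallest p-values belonged to Ndufa7 with -0.53 (SE 0.058, edgeR adjusted p 5.11e-06), Ndufs4 with -0.42 (SE 0.0484), Ndufa13 with -0.51 (SE 0.0639), Ndufb10 with -0.45 (SE 0.0575), Ndufa4 with -0.37 (SE 0.049) and Ndufv1 with -0.40 (SE 0.055). Ndufa7, Ndufa13 and Ndufb10 were also lower in TPM, by -0.24, -0.23 and -0.14. The 1 gene that was higher was Ndufa8, singled out after its value was seen, at 0.21 (SE 0.0604, edgeR adjusted p 0.0112), and it was higher under the other 2 scalings too, by 0.41 and 0.49. Without shG0s2 replicate 4, which had its highest level, Ndufa8 was at 0.15 and no longer passed with TMM (edgeR adjusted p 0.0592). Ndufv3 differed little between the knockdowns with TMM, with 0.00 (SE 0.0635), which did not pass the threshold. Without TMM it was higher in shG0s2, by 0.20 with library size alone and 0.28 in TPM. Ndufab1 was likewise higher there, by 0.32 and 0.34, against 0.12 with TMM (edgeR adjusted p 0.0753).

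Within a sample, the share of each gene in the summed counts of the 35 complex I genes does not depend on how libraries are scaled. In shG0s2, 5 shares lay above all controls, 5 below and 25 overlapped them. In shRgs16 the numbers were 8, 6 and 21. No matching counts for other genes were worked out. Since the shares of a sample add up to a fixed total, a rise of some lowers others. The genes that follow were picked by their fold changes in the same counts, so their shares are no separate support. Ndufa8 made up 3.27% ± 0.0724 in controls, 4.71% ± 0.422 with shG0s2 and 3.48% ± 0.157 with shRgs16 (SD, n = 4) of complex I counts. Its share was clear of control in shG0s2, and in shRgs16 it overlapped. Ndufab1 made up 2.76% ± 0.124 in controls, 3.94% ± 0.156 with shG0s2 and 3.09% ± 0.181 with shRgs16 (SD, n = 4), above all controls in both knockdowns. The Ndufa2 share, also above all controls in both, was 1.15% ± 0.031 in controls, 1.48% ± 0.0867 with shG0s2 and 1.38% ± 0.0433 with shRgs16 (SD, n = 4). Ndufb3 made up 2.92% ± 0.189 in controls, 2.13% ± 0.0711 with shG0s2 and 2.38% ± 0.0584 with shRgs16 (SD, n = 4) and Ndufb9 5.83% ± 0.127 in controls, 4.86% ± 0.0728 with shG0s2 and 4.69% ± 0.08 with shRgs16 (SD, n = 4), below all controls in both. Ndufa7 made up 2.14% ± 0.0613 in controls, 2.23% ± 0.117 with shG0s2 and 2.75% ± 0.091 with shRgs16 (SD, n = 4), with only shRgs16 above the controls. Ndufv3 was below the controls only in shRgs16, with 1.80% ± 0.0532 in controls, 1.69% ± 0.112 with shG0s2 and 1.44% ± 0.0566 with shRgs16 (SD, n = 4).

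**Figure D4:**
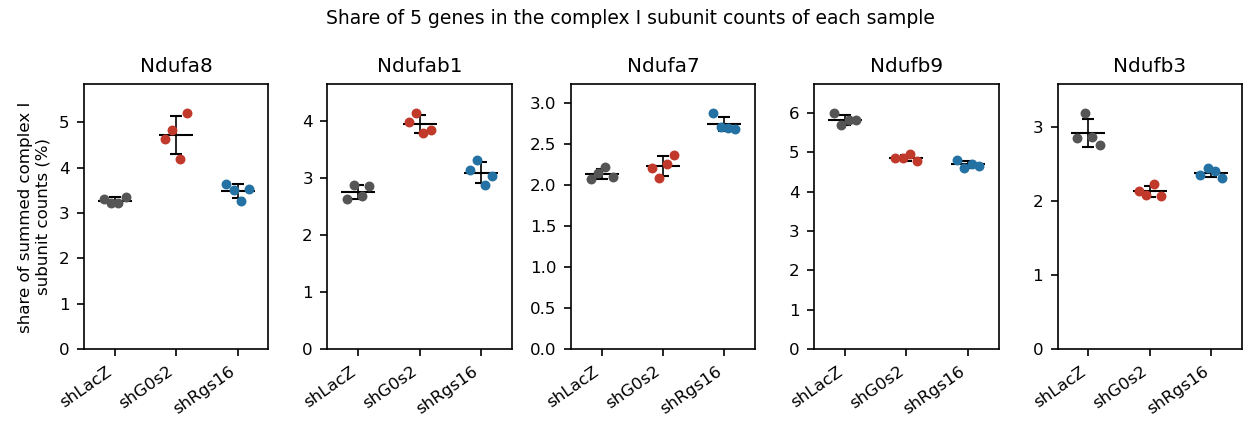
Share of 5 genes in the summed counts of the 35 complex I subunit genes (percent), per sample (points), with mean and SD (black, n = 4). The shG0s2 means of Ndufa8 and Ndufab1 are 4.71% and 3.94% against 3.27% and 2.76% in shLacZ, and the Ndufb3 and Ndufb9 shares are below control in both knockdowns.

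The other complexes of the chain behaved much like complex I. Of 38 nuclear genes of complexes II to V, 37 fell in shG0s2 and 34 in shRgs16 with TMM and 0 rose, with medians of -0.52 and -0.32. In TPM 25 were higher and 0 lower in shG0s2, and 15 and 1 in shRgs16. Of all tested genes, 74.5% and 58.0% were higher in TPM in shG0s2 and shRgs16, and 29.2% and 24.5% fell with TMM. The log2 ratio of summed complex I counts to summed counts of complexes II to V was -1.69 ± 0.0155 in controls, -1.76 ± 0.0439 with shG0s2 and -1.73 ± 0.0214 with shRgs16 (SD, n = 4). The knockdown samples overlapped the controls in both cases, and the mean differences were -0.07 and -0.04. With each gene given equal weight, as a mean of log2 counts, all knockdown samples lay just below the controls, by -0.08 and -0.05. The other gene groups compared stood farther from complex I in at least 1 knockdown. Over 13 genes of the tricarboxylic acid cycle, of which 9 fell and 1 rose in shG0s2 and 8 fell and 2 rose in shRgs16 with TMM, the ratio was -0.00 ± 0.0725 in controls, -0.29 ± 0.0351 with shG0s2 and -0.20 ± 0.0636 with shRgs16 (SD, n = 4), below all controls in both, by -0.29 and -0.20. Over 78 genes of the mitochondrial ribosome it dropped by 0.28 in shG0s2, with no overlap, and by 0.05 in shRgs16, with overlap. Over 82 cytosolic ribosomal protein genes it was lower by 28.4% in shG0s2 and 16.9% in shRgs16 (log2 -0.48 and -0.27), without overlap in either. Over 11 genes of mitochondrial protein import and folding it was -0.23 in shG0s2, without overlap, and -0.13 in shRgs16, with overlap. Overlap depended on the measure. By mean of log2 counts, shRgs16 was below all controls for import and folding but overlapped them for the tricarboxylic acid cycle. In summed TPM, both knockdowns were below all controls for complexes II to V, by -0.07 and -0.03. So was shRgs16 in summed TPM for the mitochondrial ribosome and for import and folding.

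The membrane core of the complex is encoded by 7 mitochondrial genes, and they differed between the knockdowns: 6 of 7 were lower in shG0s2 than in shRgs16 with TMM, and 4 in TPM. Against shLacZ with TMM all 7 fell in shG0s2 (median -0.73) and 3 of 7 in shRgs16 (median -0.22). Among them mt-Nd2 was -0.93 in shG0s2 (edgeR adjusted p 2.62e-06) and -0.22 in shRgs16 (edgeR adjusted p 0.0328), mt-Nd4 -0.73 in shG0s2 (edgeR adjusted p 2.12e-05) and -0.02 in shRgs16 (edgeR adjusted p 0.818), and mt-Nd6 -0.64 in shG0s2 (edgeR adjusted p 1.3e-05) and 0.17 in shRgs16 (edgeR adjusted p 0.0632). In TPM 1 was lower in shG0s2 and 5 were higher in shRgs16: mt-Nd4 was 0.41 in shRgs16 and mt-Nd6 was 0.04 in shG0s2, the opposite sign. Of all tested genes, 4.62% were lower in TPM in shG0s2 and 58.0% higher in shRgs16. The log2 ratio of nuclear to mitochondrially encoded complex I counts was -3.92 ± 0.0372 in controls, -3.80 ± 0.0498 with shG0s2 and -4.22 ± 0.089 with shRgs16 (SD, n = 4). The shG0s2 samples all lay above the controls, by 0.12 on average, and the shRgs16 samples all below, by -0.30. With each gene weighted equally, as the mean of log2 counts, the difference was 0.27 in shG0s2, again above all controls, and -0.13 in shRgs16, where it overlapped them. Of 18 assembly factors of complex I, 11 fell and 2 rose in shG0s2 and 10 fell and 0 rose in shRgs16 with TMM. Dmac1 was -1.13 in shG0s2 (edgeR adjusted p 5.98e-07) and -1.04 in shRgs16 (edgeR adjusted p 3.76e-06), Dmac2 -1.14 in shG0s2 (edgeR adjusted p 1.18e-07) and -0.15 in shRgs16 (edgeR adjusted p 0.224), and Ecsit -0.84 in shG0s2 (edgeR adjusted p 1.94e-06) and -0.31 in shRgs16 (edgeR adjusted p 0.0189). These 3 encode proteins that build the membrane arm. In TPM, Dmac1 was still lower in both, by -0.42 and -0.60, Dmac2 was -0.36 and 0.20, and Ecsit was -0.14 and 0.11. The ratio of subunit to assembly factor counts was lower than in all controls in shG0s2, by -0.12, and overlapped them in shRgs16, at 0.07. The mean of log2 counts gave -0.19 in shG0s2, below all controls, but summed TPM gave -0.05 there with overlap.

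**Figure D5:**
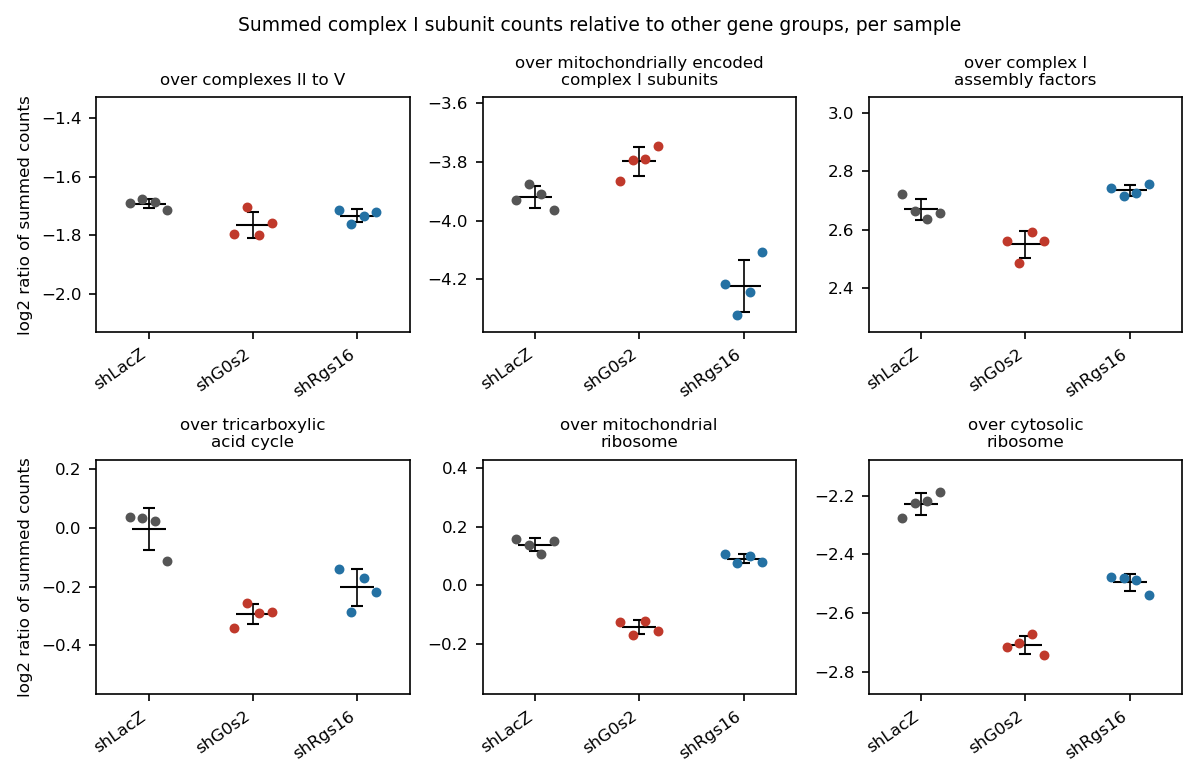
Log2 ratio of the summed counts of the 35 complex I subunit genes to those of 6 other gene groups, per sample (points), with mean and SD (black, n = 4); every panel spans the same range. The ratio to complexes II to V overlaps in all groups, while that of summed counts to the mitochondrially encoded subunits is above control in shG0s2 and below it in shRgs16.

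Of 10 known regulators of nuclear respiratory genes, 6 fell and 1 rose in shG0s2 and 5 fell and 1 rose in shRgs16 with TMM. Ppargc1a, which encodes the coactivator PGC-1α, moved in opposite directions with TMM, -0.65 in shG0s2 (edgeR adjusted p 0.000352) and 0.36 in shRgs16 (edgeR adjusted p 0.0313), and differed between the knockdowns by -1.02 (edgeR adjusted p 4.25e-05). In TPM it was -0.01 and 0.70. Its level was 20 ± 1.56 CPM in controls, 12.7 ± 2.07 with shG0s2 and 25.8 ± 4.86 with shRgs16 (mean ± SD, n = 4 per group). Esrra, the gene of the nuclear receptor ERRα, was -0.67 in shG0s2 (edgeR adjusted p 3.29e-05) and -0.29 in shRgs16 (edgeR adjusted p 0.0214), and Esrrg -0.59 in shG0s2 (edgeR adjusted p 0.0391) and -1.15 in shRgs16 (edgeR adjusted p 0.00179). Gabpa was -0.25 and -0.45, and Yy1 -0.31 and -0.32, all past the threshold. Tfam, the gene of the mitochondrial transcription factor A, was 0.01 in shG0s2 (edgeR adjusted p 0.943) and -0.52 in shRgs16 (edgeR adjusted p 9.43e-05), and 0.81 and 0.26 in TPM. The remaining 4 were Ppargc1b (-0.69 and -0.24), Pprc1 (0.25 and 0.16), Nrf1 (0.25 and 0.10) and Gabpb1 (-0.14 and -0.19). Of these, Ppargc1b and Pprc1 passed in shG0s2. In TPM, Esrra, Gabpa and Yy1 had positive values in both knockdowns, though very small ones for Esrra in shG0s2 and Gabpa in shRgs16. Whether any of these genes bears on the complex I transcripts was not tested.

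Compared per length, the complex I genes spanned a wide range of levels. In shLacZ the most abundant was Ndufa4 at 591.6 ± 25.4 TPM, followed by Ndufa6 at 361 ± 23.5, Ndufb9 at 337 ± 13.3 and Ndufa1 at 244.5 ± 9.0 (SD, n = 4 each). The ranges of Ndufa6 (336 to 381 TPM) and Ndufb9 (326 to 355 TPM) overlapped. The median over the 37 genes was 131 TPM. At the low end stood Ndufs4 at 48.6 ± 3.32, Ndufb4 at 22.2 ± 1.69 and Ndufa4l2 at 4.02 ± 1.95 TPM. Across the 35 genes without Ndufa4 and Ndufa4l2, the TMM fold change correlated with the log2 shLacZ TPM at Pearson -0.30 and Spearman -0.48 in shG0s2 and -0.46 and -0.57 in shRgs16. The correlation with log2 annotated length was 0.02 and -0.13 in shG0s2 and -0.08 and -0.09 in shRgs16. These describe points that share libraries and controls, and genes are not independent replicates. The authors' deposited table gave an adjusted p below 0.05 with a lower level for 34 members in shG0s2 and 32 in shRgs16 and a higher level for 0, with median log2 fold changes of -0.58 and -0.34. The call column of the authors' deposited table marked 1 member as lower in shG0s2, Ndufb3, and 0 in shRgs16.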

How the data were processed

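Liver RNA was depleted of ribosomal RNA with Ribo-zero and sequenced for 12 samples, 4 per group, per the labels' protocols. Tools listed in the submitters' processing notes are DESeq2, SAMtools 1.9, GATK 3.8, fastp 0.19.5 and Bowtie2 2.2.9. No source used here gives the aligner settings, the use of strand or the genome build of the counts. The deposited tables give estimated counts per gene, which are not all whole (5789 to 6625 values per sample were not), and TPM per gene, both per the file headers. The authors' tables also give a fold ratio, a log2 fold change and p-values per gene, used here only where named.

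Estimated counts were rounded and tested with edgeR 4.0.16 in R 4.3.3 (TMM, default expression filter, robust quasi-likelihood test, Benjamini-Hochberg over all tested genes, threshold 0.05), with the 8 samples of a knockdown and shLacZ, or all 12 for shG0s2 against shRgs16. TPM was tested with limma 3.58.1 on log2(TPM + 0.1), a scale on which a fold change of low genes is understated. Other normalizations and filters, DESeq2 1.42.0, limma-voom, a block and leaving out each sample were tried as alternatives, and the tests were checked on simulated counts. Replicates differed by more than sampling noise (chi-square per degree of freedom 12.1 or more). Same-numbered samples were not treated as pairs.

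The members and gene lists were chosen with earlier results of these data known. A further member is counted with the 37 but its values are not reported here. Values in every sample are given for the other 6 core genes, Ndufa4, Ndufa4l2 and the 3 largest and 3 smallest changes per knockdown, plus the 6 smallest p-values and the 1 higher gene between knockdowns. From the assembly and mitochondrially encoded lists the 3 genes with the smallest p are named, and all 10 regulators. Gene positions are from GENCODE on GRCm38, to which all 55536 identifiers matched, and promoters from RefSeq on GRCm38.p6 (32 of 37 members). Reads shared with pseudogenes, or with genes overlapping on either strand, could not be separated.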

Additional observations from a re-analysis of the deposited data

Results flagged for a closer look

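Of 78 groups of 4 samples checked for a sample apart from the others, 3 held one, and chance gives about 1 in 20. The Ndufv1 level of shLacZ replicate 1 was 215 CPM, against 232 to 235 in the other controls. The log2 ratio of complex I to tricarboxylic acid cycle counts was -0.11 in shLacZ replicate 4, against 0.02 to 0.04 in the others. The log2 ratio of complex I to cytosolic ribosome counts was -2.54 in shRgs16 replicate 4, against -2.49 to -2.48.

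In the direct edgeR test between the 2 hairpins with TMM, 24 of 37 members were lower in shG0s2 and 1 was higher, against 20.5% and 21.0% of all tested genes. The 6 lower genes given here were named for the smallest p in this test, and Ndufa8 was added after its value in it was seen. Ndufa7 was lower in shG0s2 by -0.53 (adjusted p 5.11e-06), Ndufs4 by -0.42 (6.99e-06), Ndufa13 by -0.51 (1.45e-05), Ndufb10 by -0.45 (1.93e-05), Ndufa4 by -0.37 (2.27e-05) and Ndufv1 by -0.40 (3.75e-05). Ndufa8 was higher in shG0s2, by 0.21 (0.0112). In TPM, Ndufs4, Ndufa4 and Ndufv1 did not pass the threshold, at -0.09, -0.08 and -0.13, while Ndufa7, Ndufa13, Ndufb10 and Ndufa8 did, with the same sign.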

How the results depend on the processing

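Scaling decided the direction. Of 37 genes, library size alone called 10, 8 and 7 lower and 4, 4 and 4 higher (in the order shG0s2 against shLacZ, shRgs16 against shLacZ and shG0s2 against shRgs16), with medians of -0.085, -0.034 and -0.048. Library size without Mup and mitochondrial genes called 28, 17 and 12 lower and 2, 1 and 3 higher, with medians of -0.25, -0.15 and -0.093. Upper-quartile scaling gave medians of -0.48 and -0.24 against shLacZ. TPM called 3, 3 and 3 lower and 14, 14 and 9 higher with either pseudocount, with medians of 0.13, 0.0816 and 0.0177 (0.12, 0.081 and 0.0175 with a pseudocount of 1). The offset from the median gene kept its sign in all 3 comparisons under every scaling tried. Scaling moves most genes nearly alike, so this was all but fixed in advance. It moved most with a pseudocount of 1, to -0.42 and -0.24 against shLacZ. Leaving out 1 sample at a time gave 32 to 34, 29 to 32 and 22 to 25 lower genes, medians of -0.60 to -0.55, -0.36 to -0.30 and -0.29 to -0.22, and offsets of -0.61 to -0.56, -0.37 to -0.30 and -0.31 to -0.23. It gave 0 to 0, 0 to 0 and 0 to 1 higher genes, the 0 in the last being without shG0s2 replicate 4, when Ndufa8 missed the threshold. The log2 ratio to complexes II to V differed from control by -0.09 to -0.06 and by -0.05 to -0.03. With the replicate number as a block (replicate block), 34, 30 and 23 genes were lower and the medians were -0.57, -0.34 and -0.25, though same-numbered samples did not deviate together (1 of 4 pairs over a correlation of 0.1 in each comparison, and 1, 2 and 2 of 4 best with their own number). DESeq2, limma-voom, relative log expression, other filters and the other sample sets kept these counts within 1.5 times. Over named members and settings other than leaving out a sample, 470 values stayed on their side of the threshold, 49 lost it, 4 gained it and 77 turned sign while past it with TMM or the alternative, and over named genes of the other lists 290, 32, 26 and 36. Of the 470 and 290, 14 and 16 turned sign without passing in either fit, among them Ndufs1 in shG0s2 against shRgs16 (-0.18 with TMM, 0.018 with library size alone and 0.0941 in TPM) and Ndufa4l2 in shG0s2 against shLacZ (-0.23, 0.26 and 0.0843). The lists that follow hold the values past the threshold with TMM or the alternative. In shG0s2 against shLacZ, the TPM values of opposite sign (log2 with a pseudocount of 0.1, then of 1 where it differs) were Esrra 0.0206 and 0.0196, Esrrg 0.34 and 0.17, Gabpa 0.47 and 0.45, Gabpb1 0.68 and 0.61, Ndufa2 0.48, Ndufa4 0.17, Ndufa7 0.18, Ndufa8 0.63, Ndufab1 0.61 and 0.60, Ndufc2 0.31, Ndufs1 0.23, Ndufs3 0.0106 and 0.0105, Ndufs4 0.15, Ndufs8 0.13 and 0.12, Ndufv1 0.035 and 0.0348, Ndufv2 0.28, Ppargc1b 0.0745 and 0.059, Yy1 0.44 and 0.42, mt-Nd6 0.0378. The values of opposite sign with library size alone were Gabpa 0.24, Gabpb1 0.35, Ndufa2 0.26, Ndufa8 0.42, Ndufab1 0.41, Ndufc2 0.0357, Ndufs1 0.0456, Yy1 0.19. The values of opposite sign with library size without Mup and mitochondrial genes were Gabpa 0.0722, Ndufa2 0.0983, Ndufa8 0.26, Ndufab1 0.25, Yy1 0.0217. In shRgs16 against shLacZ, the TPM values of opposite sign (log2 with a pseudocount of 0.1, then of 1 where it differs) were Ecsit 0.11, Esrra 0.17, Gabpa 0.0355 and 0.0334, Ndufa13 0.15, Ndufa2 0.31, Ndufa4 0.25, Ndufa7 0.42, Ndufa8 0.14, Ndufab1 0.27, Ndufb10 0.025 and 0.0248, Ndufc2 0.35, Ndufs1 0.14 and 0.13, Ndufs3 0.0193 and 0.0191, Ndufs4 0.24, Ndufs8 0.0512 and 0.0508, Ndufv1 0.16, Ndufv2 0.27 and 0.26, Tfam 0.26 and 0.25, Yy1 0.0996 and 0.0937, mt-Nd2 0.21, mt-Nd4 0.41. The values of opposite sign with library size alone were Esrra 0.005, Ndufa13 0.0135, Ndufa2 0.18, Ndufa4 0.13, Ndufa7 0.28, Ndufa8 0.0128, Ndufab1 0.0875, Ndufc2 0.18, Ndufs1 0.0276, Ndufs4 0.16, Ndufv2 0.11, mt-Nd2 0.0797, mt-Nd4 0.28. The values of opposite sign with library size without Mup and mitochondrial genes were Ndufa4 0.0069, Ndufa7 0.17, Ndufs4 0.042. In shG0s2 against shRgs16, the TPM values of opposite sign (log2 with a pseudocount of 0.1, then of 1 where it differs) were Ndufs8 0.0743 and 0.0738, Ndufv2 0.0177 and 0.0175. The values turned sign with the scaling, and the cause was not tested. The effect of depth on single calls was not tested, and Ndufa4l2 had the lowest level, at 1.11 to 2.22 CPM.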
